A study of Mus musculus with 6 samples.

Results

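Messenger RNA of the fibrillar collagens and of the enzymes and chaperones that help to make them was followed in infarcted mouse hearts, as 10 named genes: the chain genes Col1a1, Col1a2, Col3a1, Col5a1, Col5a2, Col5a3 and Col11a1, and the processing genes Serpinh1, P4ha1 and Pcolce. The genes were chosen by symbol, and each of the 10 had 1 feature on the array, out of 19505 gene symbols in all. Whole hearts of male mice were measured with Clariom S mouse arrays, 1 array per heart and 2 hearts per group. TTg mice carried Tcf21iCre, a Tomato reporter and MGTH2A, which encodes Mef2c, Gata4, Tbx5 and Hand2, transcription factors used to turn fibroblasts into cardiomyocyte-like cells, and their hearts were taken 3 months after infarction. Ctrl mice carried Tcf21iCre and Tomato without MGTH2A, and their hearts were taken at 3 months or at 2 months. All mice, Ctrl included, carried the inducible Cre under Tcf21, a gene of the fibroblast lineage, and all had the left coronary artery tied at 8 weeks of age. Mice whose ejection fraction was above 45% at 2 days were removed from the study, so hearts with milder early dysfunction are not represented. No uninfarcted heart and no TTg heart at 2 months was analysed here.

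Fibrillar collagens are secreted as procollagen, in which chains with a repeating glycine pattern wind into a triple helix inside the endoplasmic reticulum and are trimmed and packed into fibrils outside the cell. Types I and III make up most of the fibrils of a cardiac scar, whereas types V and XI are minor chains that start fibrils and set their width. In the heart these genes are made mainly by fibroblasts, which lay down the scar after an infarct. P4ha1 is the catalytic chain of prolyl 4-hydroxylase, which stabilises the helix, Serpinh1 (Hsp47) is the collagen chaperone of the endoplasmic reticulum, and Pcolce is a secreted protein that speeds removal of the C-terminal propeptide.

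Values are log2 signals, and a difference is a log2 difference of group means ± SE from limma, n = 2 arrays in each group. The small number of arrays sets how precise a value can be, and an exact permutation test of 2 arrays against 2 cannot reach the threshold of 0.05 (smallest p 0.33). The median signal of the arrays lay between 4.91 and 5, and the scale ended at 19.93, well above the highest value of any of the 10 genes (12.90). As a check of the tissue, the 8 cardiomyocyte markers had mean signals from 18.65 to 19.08 on the 6 arrays, near the top of the scale.

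The 10 genes fell at different heights of the array's range. P4ha1 and Col3a1 had means over the 6 arrays of 11.65 and 11.42, Serpinh1 10.50, Col1a2 9.90, Pcolce 8.65, Col1a1 8.39 and Col5a2 5.35. Signals of different probes do not rank the transcripts by abundance. Col11a1, at 3.62, was near background, taken as a mean below the 30th percentile of all features (3.65). Col5a1 at 3.68 and Col5a3 at 3.85 lay just above that line, at percentiles of 30.8 and 34.5, so the sizes of their differences also depend on the background.

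The main scar collagens had lower means in TTg hearts at 3 months than in Ctrl hearts at 3 months, but no difference passed the test over all features. Col3a1, the single chain of type III collagen, had 11.38 and 9.10 in TTg, 12.47 and 11.87 in 3-month Ctrl and 12.86 and 10.84 in 2-month Ctrl. Both TTg values lay below both Ctrl values at 3 months, although the TTg hearts differed from each other by 2.28. The Col3a1 difference between TTg and Ctrl at 3 months was −1.93 ± 0.85 (95% interval −3.93 to 0.07, 3.81-fold lower, adjusted p = 0.670 in limma). Col1a1, the major chain of type I collagen, had 8.49 and 7.81 in TTg, 9.63 and 8.81 in 3-month Ctrl and 8.63 and 6.97 in 2-month Ctrl. For Col1a1 the TTg hearts were below both Ctrl hearts at 3 months and within the range of those at 2 months. Its difference from Ctrl at 3 months was −1.07 ± 0.57 (95% interval −2.40 to 0.26, adjusted p = 0.718 in limma). Col1a2, the other chain of type I, had 9.66 and 8.15 in TTg, 11.64 and 9.56 in the 3-month Ctrl hearts and 10.96 and 9.45 in the 2-month Ctrl hearts. Here the groups at 3 months overlapped, because TTg replicate 1 lay just above Ctrl replicate 2. The Col1a2 difference was −1.70 ± 0.82 (95% interval −3.62 to 0.23, adjusted p = 0.698 in limma). In whole hearts, fewer fibroblasts and less collagen RNA per fibroblast cannot be told apart.

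**Figure D1:**
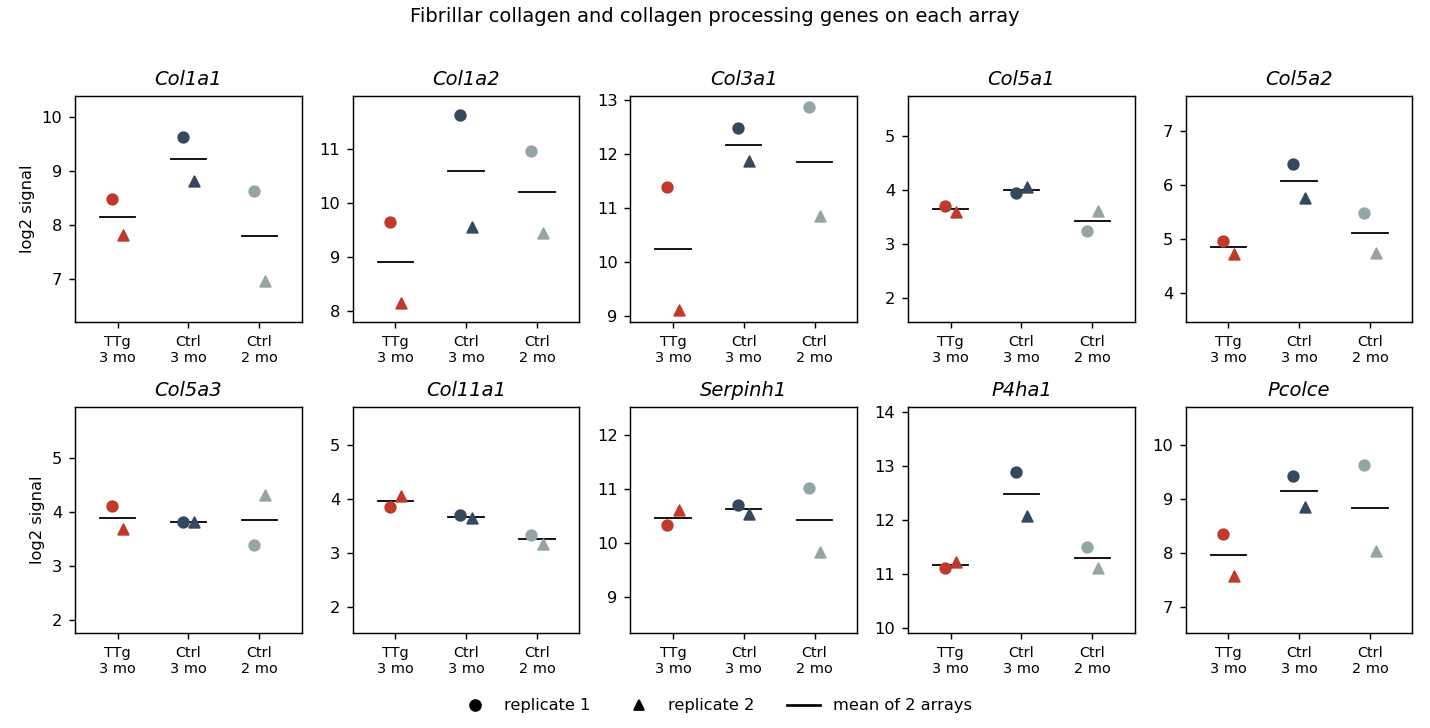
Log2 signal (y axes, each spanning the same range) of the 10 genes in TTg hearts at 3 months, Ctrl hearts at 3 months and Ctrl hearts at 2 months. Circles are replicate 1, triangles replicate 2, and lines the mean of 2 arrays. P4ha1 and Col5a2 stand high in Ctrl at 3 months, with TTg at 11.11 and 11.22 and at 4.97 and 4.72, whereas Serpinh1 has similar means in the 3 groups.

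The minor chains did not share 1 pattern. Col5a2, a chain of type V collagen, had 4.97 and 4.72 in TTg, 6.40 and 5.76 in 3-month Ctrl and 5.49 and 4.74 in 2-month Ctrl. Both Ctrl hearts at 3 months were higher than the other 4 hearts. The Col5a2 difference between TTg and Ctrl at 3 months was −1.24 ± 0.35 (95% interval −2.05 to −0.42, 2.35-fold lower, unadjusted p = 0.0088, adjusted p = 0.661 in limma). Col5a1, the main chain of type V, ran the same way on a small scale near the floor, with 3.69 and 3.59 in TTg, 3.94 and 4.05 in 3-month Ctrl and 3.24 and 3.60 in 2-month Ctrl. Its difference was −0.36 ± 0.24 (adjusted p = 0.786 in limma). Col5a3, a further type V chain, had 4.11 and 3.68 in TTg, 3.81 and 3.82 in 3-month Ctrl and 3.39 and 4.31 in 2-month Ctrl, with the widest gap inside the 2-month pair. The TTg mean was 0.08 ± 0.34 above that of Ctrl at 3 months (95% interval −0.73 to 0.89), and without TTg replicate 1 the sign turned, to −0.135. Col11a1, a type XI chain best known from cartilage, had 3.86 and 4.05 in TTg, 3.70 and 3.64 in 3-month Ctrl and 3.33 and 3.17 in 2-month Ctrl. It was the 1 gene of the 10 with both TTg values above both Ctrl values at 3 months, at 0.28 ± 0.23 (95% interval −0.25 to 0.82, adjusted p = 0.825 in limma), all of it near background.

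Of the processing genes, P4ha1 had the smallest p-value and Serpinh1 the smallest difference. P4ha1 had 11.11 and 11.22 in TTg, 12.90 and 12.08 in 3-month Ctrl and 11.51 and 11.11 in 2-month Ctrl. The TTg hearts and the Ctrl hearts at 2 months lay close together, and both Ctrl hearts at 3 months stood above them. The P4ha1 difference between TTg and Ctrl at 3 months was −1.33 ± 0.33 (95% interval −2.09 to −0.56, 2.50-fold lower, unadjusted p = 0.00459, adjusted p = 0.646 in limma). Pcolce had 8.35 and 7.58 in TTg, 9.43 and 8.85 in 3-month Ctrl and 9.64 and 8.04 in 2-month Ctrl. Its TTg values were below both Ctrl values at 3 months, with a difference of −1.18 ± 0.54 (95% interval −2.45 to 0.10, adjusted p = 0.685 in limma). Serpinh1 had 10.33 and 10.60 in TTg, 10.70 and 10.54 in 3-month Ctrl and 11.01 and 9.83 in 2-month Ctrl. The pair at 2 months spanned both other groups, and the difference between TTg and Ctrl at 3 months was −0.16 ± 0.39 with a 95% interval from −1.07 to 0.76, whose lower end is as large as the difference found for Col1a1.

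Promoter sequences were available for 8 of the 10 genes from RefSeq (GRCm38.p6), Col1a1 and Col5a2 not among them. The 250 bases before the start of transcription are shown for Col1a2 and Col3a1, the chains with the lowest TTg values relative to Ctrl, for P4ha1, the gene with the smallest p-value, and for Serpinh1, the processing gene with the smallest difference. Capitals mark matches on either strand to CCAAT (bound by NF-Y), GGGCGG (the GC box of Sp1), TATAAA (the TATA box) and CAGACA (which holds the CAGA element of Smad3), written 5′ to 3′ along the gene.
Col1a2 (chr6:4505368-4505617, + strand): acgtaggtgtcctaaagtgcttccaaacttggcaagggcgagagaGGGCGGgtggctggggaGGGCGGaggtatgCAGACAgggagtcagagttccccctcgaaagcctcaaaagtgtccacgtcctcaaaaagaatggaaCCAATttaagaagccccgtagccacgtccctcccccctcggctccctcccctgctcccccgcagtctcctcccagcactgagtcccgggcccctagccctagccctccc
Col3a1 (chr1:45311288-45311537, + strand): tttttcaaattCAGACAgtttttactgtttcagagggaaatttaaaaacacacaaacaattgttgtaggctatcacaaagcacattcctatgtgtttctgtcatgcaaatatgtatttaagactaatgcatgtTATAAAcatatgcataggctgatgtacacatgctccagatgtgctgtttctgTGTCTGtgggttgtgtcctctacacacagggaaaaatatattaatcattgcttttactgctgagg
P4ha1 (chr10:59323046-59323295, + strand): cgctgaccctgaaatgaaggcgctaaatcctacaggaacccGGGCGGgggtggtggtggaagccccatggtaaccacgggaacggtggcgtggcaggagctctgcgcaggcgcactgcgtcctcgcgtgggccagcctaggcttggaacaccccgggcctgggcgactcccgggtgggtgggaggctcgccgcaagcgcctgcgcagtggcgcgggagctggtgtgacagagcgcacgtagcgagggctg
Serpinh1 (chr7:99353240-99353489, - strand): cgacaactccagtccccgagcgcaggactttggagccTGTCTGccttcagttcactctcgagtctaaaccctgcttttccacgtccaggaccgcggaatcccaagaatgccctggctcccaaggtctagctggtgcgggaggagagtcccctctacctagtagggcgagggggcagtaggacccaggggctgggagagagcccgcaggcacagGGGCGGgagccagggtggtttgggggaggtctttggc
The Col1a2 window held a CCAAT starting 109 bases before the start, a pair of GC boxes at 205 and 188 bases and a CAGACA at 175 bases. The Col3a1 window was AT-rich, with a GC content of 35.2%, held no GC box, and had TATAAA at 117 bases and CAGACA at 239 bases and, on the opposite strand, at 65 bases. P4ha1 had a GC content of 69.6% and 1 match, a GC box at 209 bases, and Serpinh1 a GC box at 37 bases and CAGACA on the opposite strand at 213 bases. Over the 8 windows, a GC box was present in 7, CAGACA in 4, CCAAT in 3 and TATAAA in 1, whereas of 32536 RefSeq windows of the same length 33% held a GC box, 17% CAGACA, 33.8% CCAAT and 12.3% TATAAA. The 7 windows with a GC box had GC contents from 58.8% to 76.4%, and the median over all windows was 52.4%, so these shares are not matched for base composition. No 2 matches overlapped in the windows shown.

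As a group, 8 of the 10 genes had a lower mean in TTg than in Ctrl at 3 months, and 48.3% of all 22206 features did. The median difference of the 10 was −1.12, and that of all features 0.01. Of the 10, 6 had both TTg values below both Ctrl values, a pattern that 19.3% of all features showed, and Col11a1 had the opposite pattern, shown by 19.1%. None of the 10 passed limma at an adjusted p under 0.05, and 0.0045% of all features, a single one, did. At an unadjusted p under 0.05, P4ha1 and Col5a2 were lower, and 4.11% of all features were lower at that level. That count of 2 fell without TTg replicate 2 or Ctrl 3-month replicate 1 and rose without any other array. Each such fit leaves 1 heart in a group, and the share of all features in it is not given here. The median rested in part on single hearts, at −0.66 without Ctrl 3-month replicate 1, −0.76 without TTg replicate 2 and −1.47 without Ctrl 3-month replicate 2. The number of genes with a lower mean stayed at 8 or 9 with any 1 array left out, and at 8 with quantile normalization and with median centring.

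**Figure D2:**
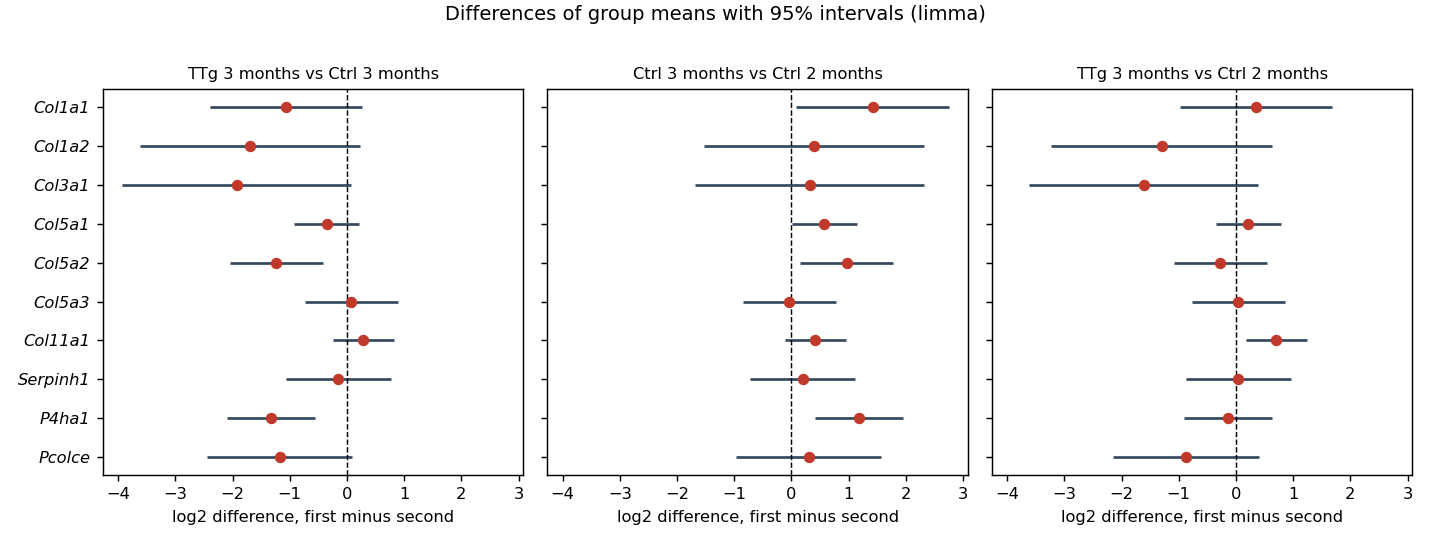
Log2 differences of group means (points) with 95% intervals from limma (lines) for the 10 genes in the 3 comparisons, first group minus second, n = 2 arrays per group. In TTg against Ctrl at 3 months the intervals of Col5a2 and P4ha1 lie below 0, and in Ctrl at 3 against 2 months those of Col1a1, Col5a1, Col5a2 and P4ha1 lie above 0, none with an adjusted p under 0.05.

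Between Ctrl hearts at 3 and at 2 months, the genes with the larger differences were Col1a1, P4ha1 and Col5a2, all higher at 3 months. Col1a1 was higher at 3 months by 1.42 ± 0.57 (2.68-fold, 95% interval 0.09 to 2.75, adjusted p = 0.601 in limma). P4ha1 was higher by 1.18 ± 0.33 (2.27-fold, 95% interval 0.41 to 1.95, adjusted p = 0.492) and Col5a2 by 0.96 ± 0.35 (adjusted p = 0.561). Both 3-month values lay above both 2-month values for these genes and for Col5a1 and Col11a1, 5 of 10 in all, and 18.3% of all features showed this pattern. Col3a1, Col1a2, Pcolce and Serpinh1 had differences of 0.32 ± 0.85, 0.40 ± 0.82, 0.30 ± 0.54 and 0.20 ± 0.39, each with overlapping groups. Of the chains of type I collagen, Col1a1 thus had no overlap between the times and Col1a2 had, and the difference between these genes was not tested. Of the 10 genes, 9 had a higher mean at 3 months (50.5% of all features), the median difference was 0.41, none passed limma (0.0045% of all features did) and 4 were higher at an unadjusted p under 0.05 (3.91% of all features). That count of 4 fell whenever 1 array was left out, except for Ctrl 2-month replicate 1, where it rose. The share of all features in those fits is not given here. Leaving out Ctrl 2-month replicate 2, the lower heart of its pair for 8 of the 10 genes (all but Col5a1 and Col5a3), left 6 of 10 genes higher, at a median of 0.38. Leaving out Ctrl 2-month replicate 1 gave a median of 1.12, and without Ctrl 3-month replicate 1 it was 0.26. Without Ctrl 2-month replicate 2 the sign turned for Pcolce, Col3a1, Serpinh1 and Col1a2, to −0.50, −0.69, −0.39 and −0.36, and for Col5a3, to 0.43.

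TTg hearts at 3 months and Ctrl hearts at 2 months differed in both directions. TTg was lower in Col3a1 (−1.61 ± 0.85, 95% interval −3.61 to 0.39), Col1a2 (−1.30 ± 0.82) and Pcolce (−0.88 ± 0.54), all with overlapping groups and an adjusted p between 0.590 and 0.656 in limma. P4ha1 (−0.14 ± 0.33), Col5a2 (−0.27 ± 0.35) and Serpinh1 (0.04 ± 0.39) had means close to those of Ctrl at 2 months, with intervals that include 0. Col11a1 was the 1 gene with groups that did not overlap, higher in TTg by 0.70 ± 0.23 (95% interval 0.17 to 1.24, adjusted p = 0.417), a pattern shown by 21.2% of all features. None of the 10 passed limma, and 0% of all features did (0 of 22206), while Col11a1 alone of the 10 was higher at an unadjusted p under 0.05 and 4.30% of all features were. Col11a1 did not keep that level without TTg replicate 2 (difference 0.61) or without Ctrl 2-month replicate 2 (0.625), fits that leave 1 heart in a group. Without Ctrl 2-month replicate 1 its difference was 0.785, and that of Col1a1 was 1.18. At an unadjusted p under 0.05 none of the 10 was lower (5.41% of all features were). Without Ctrl 2-month replicate 2 the difference was −2.62 for Col3a1 and −1.675 for Pcolce, and without Ctrl 2-month replicate 1 it was −0.60 and −0.075. Col3a1 was at −2.75 without TTg replicate 1 and at −0.47 without TTg replicate 2. Of the 10 genes 5 had lower and 5 higher means (47.3% and 52.1% of all features), at a median of −0.05. That median turned to 0.05 without Ctrl 2-month replicate 1 and was −0.51 without Ctrl 2-month replicate 2. The 3 comparisons share arrays in pairs, so their values for 1 gene are not independent of each other.

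Hearts of the same group differed widely in several of the 10 genes. Replicate 1 exceeded replicate 2 in 7 of the 10 genes in TTg, 8 in Ctrl at 3 months and 8 in Ctrl at 2 months, and by a median of 0.34, 0.59 and 0.96 in those groups. Over all features replicate 1 was the higher in 50.4%, 51% and 47.2%. The median gap in size between replicates over all features was 0.27, 0.31 and 0.32, whereas Col1a2 had gaps of 1.51, 2.08 and 1.51, Col1a1 gaps of 0.68, 0.82 and 1.66, and Col3a1 gaps of 2.28, 0.60 and 2.02. Ctrl 3-month replicate 1 was the highest array for 4 of the 10 genes, and TTg replicate 2 the lowest for 4. Replicate numbers of different groups mark different mice.

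The genes also differed in how they moved against each other on the same array. With each value taken relative to Col1a1 and centred over the 6 arrays, Col5a2, Pcolce and P4ha1 spanned 1.29, 1.30 and 1.52, and Col3a1 and Col5a3 spanned 2.94 and 3.16. The range of Col1a1 itself, 2.66, enters each of these spans. Relative to Col1a1, Col3a1 was lower in TTg than in Ctrl at 3 months by a mean of −0.86 and Col1a2 by −0.62, while Serpinh1 was higher by 0.92. Between Ctrl at 3 and 2 months the same measure was −1.10 for Col3a1, −1.02 for Col1a2, −1.12 for Pcolce and −0.24 for P4ha1. Col1a1 itself differed by −1.07 and 1.42 in these comparisons. A gene with no change of its own is therefore positive in the former and negative in the latter. The closest pair of the 10 was P4ha1 and Col5a2, whose centred values had a root mean square distance of 0.18, followed by Col5a1 with Col5a3 at 0.32, both near the floor. These relative values show unequal change between genes and were not tested.

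Fibroblast markers varied alongside the collagens. The 7 measured genes of a list of 8 (Tcf21, Dpt, Gsn, Lamc1, Mfap5, Scara5 and Pi16) had array means of 9.84 and 9.41 in TTg, 11.16 and 10.46 in 3-month Ctrl and 11.18 and 10.08 in 2-month Ctrl, and 6 of 7 were lower in TTg than in Ctrl at 3 months, at a median of −1.04. Tcf21 itself, which drives the Cre, had 5.23 and 4.98 in TTg, 7.51 and 6.42 in 3-month Ctrl and 8.48 and 4.98 in 2-month Ctrl. Of 8 activated fibroblast markers 6 were lower in TTg than in Ctrl at 3 months, with Comp at −4.88 ± 1.39 and Postn at −3.09 ± 1.09, and Acta2 and Fap, at 1.39 and 0.33, were higher. All 7 measured macrophage markers had lower means in TTg than in Ctrl at 3 months (median −1.34), with array means of 8.24 and 7.58 in TTg against 9.98 and 8.57 in Ctrl at 3 months. Endothelial markers went both ways (4 lower and 3 higher, from −0.55 to 0.70, median −0.17). So did mural cell markers (3 lower and 3 higher, from −0.50 to 1.205, median −0.04). Of 8 cardiomyocyte markers 6 were higher and 0 lower, at a median of 0.175, with Ryr2 at 0.85. The 2 measured Schwann cell markers were near background. None of these markers passed limma in TTg against 3-month Ctrl (smallest adjusted p 0.646). No marker had a signal of 0, and their part in the collagen differences was not tested.

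**Figure D3:**
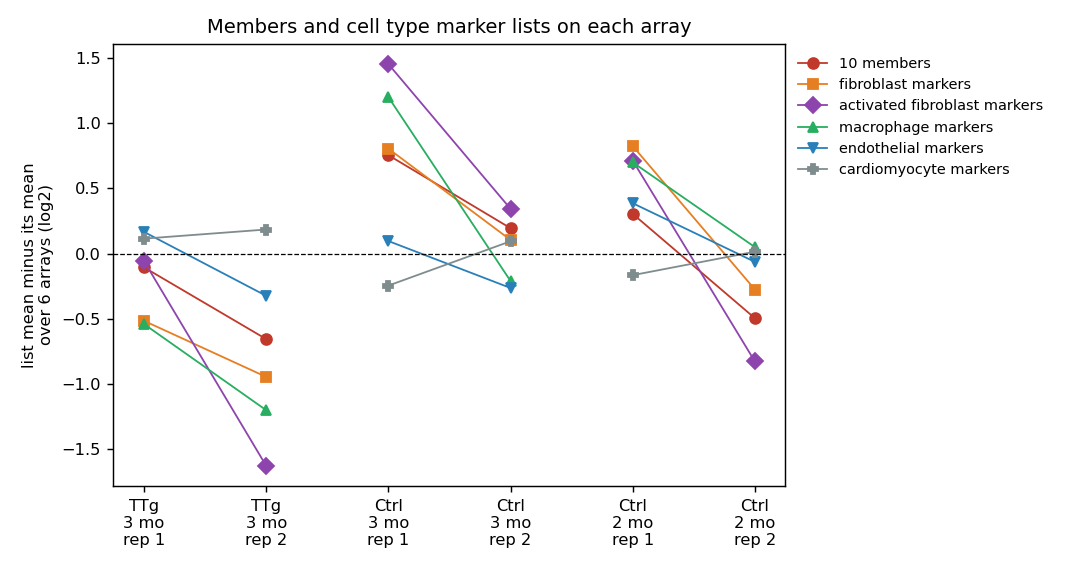
Mean log2 signal of the 10 genes and of 5 cell type marker lists on each array (x axis), each centred on its own mean over the 6 arrays (y axis). Lines join the 2 arrays of a group. Replicate 1 lies above replicate 2 in all 3 groups for each list but the cardiomyocyte markers, where it lies below. Of these markers Pln and Myl2 stayed near the end of the scale on all 6 arrays, at 19.89 and 19.93, and Ryr2 had the widest gap between replicates in each group.

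Set against the mean of the fibroblast markers on the same array, the genes had values on both sides of 0. For TTg against Ctrl at 3 months the mean difference of that ratio was 0.01 for Pcolce, −0.05 for Col5a2, 0.12 for Col1a1 and −0.14 for P4ha1. It was −0.74 for Col3a1 and −0.51 for Col1a2, and 1.03 for Serpinh1. The genes near the floor also had positive values, 0.83 for Col5a1, 1.27 for Col5a3 and 1.47 for Col11a1. The marker mean itself was lower in TTg (9.84 and 9.41) than in Ctrl at 3 months (11.16 and 10.46). A gene with no change of its own therefore has a positive value here. On their own, Serpinh1, Col5a1, Col5a3 and Col11a1 differed by −0.16, −0.36, 0.08 and 0.28. For Ctrl at 3 against 2 months the mean difference of the ratio was 1.24 for Col1a1, 1.0 for P4ha1 and 0.78 for Col5a2. It was 0.14 for Col3a1, 0.12 for Pcolce and 0.02 for Serpinh1. Pcolce was thus near 0 in both comparisons. No test was made on these ratios.

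Other genes listed under collagen synthesis, among them the collagen uptake gene Mrc2, lay on both sides of 0. Of 30 measured genes of a list of 32, none passed limma in TTg against Ctrl at 3 months (smallest adjusted p 0.646), 21 had lower and 9 higher means, and the median difference was −0.22. The 5 with the largest differences were P3h2 (−1.38 ± 0.50), a prolyl 3-hydroxylase, Sparc (−1.33 ± 0.59), a collagen-binding matrix protein, Mrc2 (−1.32 ± 0.33), a receptor for collagen uptake, Pcolce2 (−1.08 ± 0.39), a relative of Pcolce, and Crtap (−1.04 ± 0.67), a partner of the prolyl 3-hydroxylase complex. P3h2, Mrc2, Pcolce2 and Fkbp14, a prolyl isomerase, were lower at an unadjusted p under 0.05, and P3h4, an endoplasmic reticulum protein related to the prolyl 3-hydroxylases, was higher (0.96 ± 0.34). At that level 913 of all 22206 features were lower and 745 were higher. Fkbp14 and P3h4 were named after their values were seen, as were the following partners of the 10 genes. P4ha2, the alternative catalytic chain to P4ha1, differed by 0.29 ± 0.39 and P4hb, the shared beta chain, by −0.58 ± 0.38. Bmp1, the propeptidase that Pcolce assists, differed by −0.21 ± 0.33. In Ctrl at 3 against 2 months, P3h2 was higher by 1.56 ± 0.50 and Mrc2 by 1.05 ± 0.33 (adjusted p 0.542 and 0.537 in limma), and 17 of 30 genes were higher and 13 lower.

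**Figure D4:**
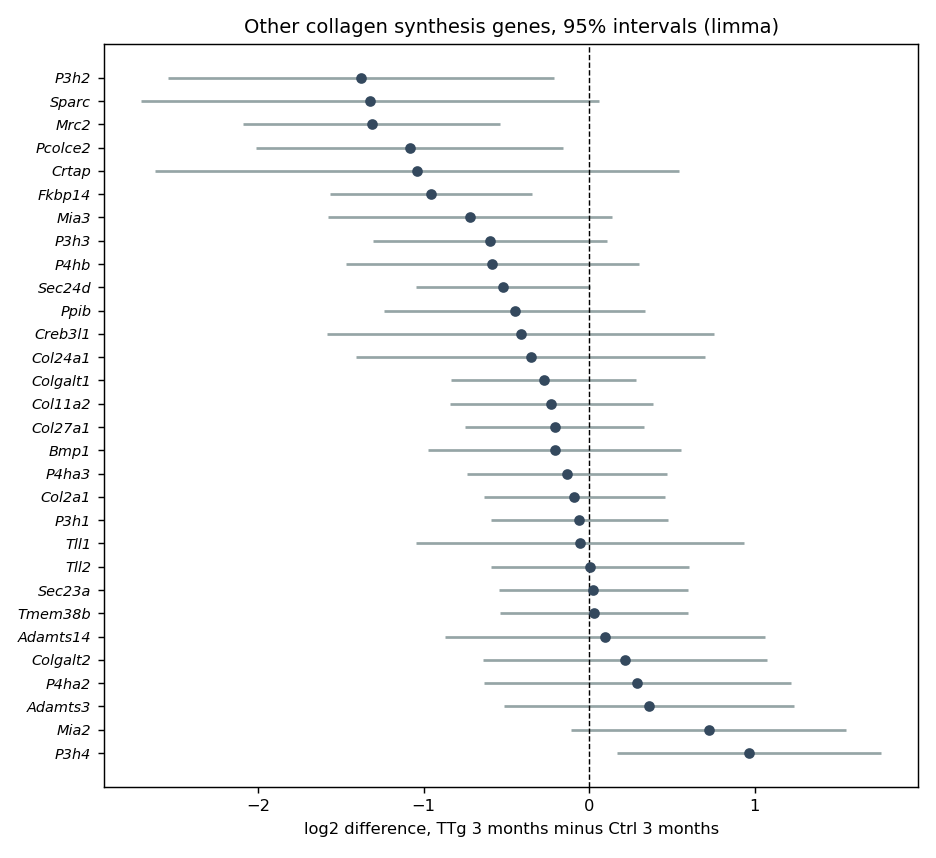
Log2 differences of TTg minus Ctrl at 3 months (points) with 95% intervals from limma (lines) for the 30 other genes listed under collagen synthesis, ordered by difference, n = 2 arrays per group. The intervals of P3h2, Mrc2, Pcolce2 and Fkbp14 lie below 0 and that of P3h4 above 0, and no gene had an adjusted p under 0.05.

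Of 7 listed genes of collagens outside the fibrillar family, 6 were measured. Col8a1, a short-chain collagen, differed by −0.86 ± 0.26 and Col6a3, a chain of the type VI microfibrils, by −0.77 ± 0.37 in TTg against Ctrl at 3 months. Neither passed limma (adjusted p 0.661 and 0.698), 4 of the 6 had lower and 2 higher means, and the median difference was −0.67.

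Among 13841 features that had 1 symbol and were not near background, those most like Col1a1 over the 6 arrays, by the root mean square distance of centred values, were Tnc (0.15), Sox9 (0.19), Fstl3 (0.19), P3h2 (0.23) and Rai14 (0.28). Tnc, a matrix glycoprotein of healing tissue, had 5.06 and 4.56 in TTg, 6.31 and 5.39 in 3-month Ctrl and 5.04 and 3.86 in 2-month Ctrl. Like Col1a1, it was highest in Ctrl 3-month replicate 1 and lowest in Ctrl 2-month replicate 2. The features closest to the mean of the 10 genes were those of Pik3ap1 (0.09), Txnip (0.10), Pcdhb17 (0.10), Ehd2 (0.10) and Dsel (0.11).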

How the data were processed

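RNA from 6 hearts (100 ng each, RNA integrity number over 7.0, per the labels' protocols) was measured on 6 arrays, 1 per heart. The deposited values were log2 signals summarised per array feature by the authors. The submitters' processing notes name Transcriptome Analysis Console 4.0. The background, summary and normalization methods and the genome build are not given in the sources used here, so a difference between arrays may also carry that step. Of 22206 features, 19572 had 1 gene symbol and the other 2634 did not. Groups came from the labels, which call the hearts independent biological replicates.

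Values were used without further normalization. The model was limma's (version 3.58.1, R 4.3.3), with 1 coefficient per group over all 6 arrays (3 residual and 4.13 prior degrees of freedom), two-sided, with Benjamini-Hochberg adjustment over all features at 0.05. The fit was tested on simulated data with planted differences far larger than those of the 10 genes. That check does not show what size of difference could be detected here. The named genes are the 10 members and the 5 features nearest to Col1a1 and to the members' mean. From each context list they are those passing or with the largest differences in TTg against Ctrl at 3 months. The limit was 5 for collagen synthesis and 2 for the others, not all of which are given here. Acta2, Fap, Pln and Myl2 were named outside this rule, as were the collagen synthesis genes said to be named after their values were seen. Members, lists, naming rule and motifs were chosen with earlier results of these data known. Alternatives changed the prior, normalization, filter, samples in the fit, block and call rule, and left out each array.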

Additional observations from a re-analysis of the deposited data

How the results depend on the processing

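No gene of the 10 reached an adjusted p under 0.05 in any of the 3 comparisons under any alternative run (smallest adjusted p 0.12, 0.281 and 0.134 for TTg against Ctrl at 3 months, Ctrl at 3 against 2 months and TTg at 3 against Ctrl at 2 months). Changes to the prior, the filter, the groups fitted or the block left each difference as it was. Only normalization and leaving out an array of a compared group could turn a sign. Of the 139 values recomputed in each comparison, many could thus not turn, and 1, 6 and 8 did. For the genes that turned sign, leaving out 1 array at a time gave a range of −0.135 to 0.295 (Col5a3) in TTg against Ctrl at 3 months. In Ctrl at 3 against 2 months they were −0.645 to 1.435 (Col1a2), −0.69 to 1.33 (Col3a1), −0.495 to 0.425 (Col5a3), −0.39 to 0.79 (Serpinh1) and −0.5 to 1.1 (Pcolce). In TTg against Ctrl at 2 months they were −0.48 to 1.18 (Col1a1), −0.645 to 0.105 (Col5a2), −0.415 to 0.505 (Col5a3), −0.545 to 0.635 (Serpinh1) and −0.345 to 0.055 (P4ha1), and quantile normalization put Col5a3 at −0.019. The cause was not tested. Over all features, TTg against Ctrl at 3 months had 1 feature past the threshold, 2 with the 2 groups alone, 0 to 2 with 1 array left out, and 666 at an unadjusted p under 0.05 with at least a 2-fold difference. Ctrl at 3 against 2 months had 1, with 0 under an intensity trend, quantile normalization or the filter on dim features, 0 to 6 with 1 array left out, and 613 by the unadjusted rule. TTg against Ctrl at 2 months had 0, with 1 under a robust prior, 0 to 22 with 1 array left out, and 886 by the unadjusted rule. With the replicate number as a block these counts were 11, 1 and 5, and 6 of the 10 genes were lower in TTg than in Ctrl at 3 months at an unadjusted p under 0.05, where 2 were without the block and 5 with the 2 groups alone. With the block 3 genes (Col1a2, Col3a1 and Pcolce) were lower in TTg at 3 months than in Ctrl at 2 months at that level, where none was without it. In Ctrl at 3 against 2 months 3 were higher, where 4 were without it and 2 with the 2 groups alone. The share of all features at that level with the block or with the 2 groups alone is not given here. These counts are therefore not read as a result about the 10 genes. Same-numbered arrays had deviations from their group means that correlated at 0.12 to 0.136 across features, but each comparison has only 2 same-numbered pairs and the labels name no shared animal, litter or day, so the numbers were not taken as pairs. Where an array was left out, its group's remaining array was given the spread of the other groups. Signals near the 30th percentile limit what can be said of Col5a1, Col5a3 and Col11a1.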
